A study of Rattus norvegicus with 12 samples.

Results

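The 10 transcripts described here belong to the circadian clock of coronary arterioles: the output activator Dbp and 9 genes of the same oscillator, Tef, Per1, Per2, Per3, Cry1, Nr1d1, Nr1d2, Arntl and Clock. They are 10 of the 24600 Ensembl gene IDs in the deposited count table, and all 10 passed the count filter that 12496 genes passed. Dbp was chosen by its log2 fold change between old and young controls in these same libraries, and the other 9 were listed with it as known clock genes. The contrast of old with young controls is therefore given for all 10 as a description, with no p-value, and the test calls counted for it are not evidence for these genes. The pairing of the 10 IDs with symbols comes with the gene list. No other ID could be paired with a symbol (0 of 24600), so other clock genes, immediate early genes and cell type markers were not analysed here, and the arteriole label could not be checked against markers.

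The libraries hold polyadenylated RNA of coronary arterioles less than 150 µm wide, taken from apical branches of the left anterior descending artery of female Fischer-344 rats. Young controls were 3 months old and old controls 24 months old, both without treatment. The old SVF-treated rats, labelled 24 months old, were given 10000000 cells of the stromal vascular fraction (SVF), a mixed isolate from adipose tissue, through the tail vein at 23 months, and their vessels were taken 4 weeks later. Each group had 4 libraries, and each RNA sample pooled at least 5 microvessels within its group, so the spread between libraries, and every p-value, may be partly technical. In such bulk samples fewer cells of a type and less RNA per cell cannot be told apart. The labels used here give no time of day of collection, and its part in the values below was not tested.

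The mammalian clock is a feedback loop of transcription. CLOCK and BMAL1, the product of Arntl, bind E-box motifs and switch on the Per, Cry, Nr1d and Dbp genes. PER and CRY proteins then inhibit CLOCK and BMAL1, while the REV-ERB proteins made from Nr1d1 and Nr1d2 repress Arntl through ROR response elements. DBP and TEF, relatives of the PAR bZIP family, act on D-box motifs in output genes and in Per genes. Transcripts of Dbp, Tef, Per and Nr1d genes therefore peak at roughly the opposite time of day to Arntl, and Cry1 follows later. Smooth muscle and endothelial cells of vessels carry this clock.

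The stretches before the annotated start of 6 members are shown because these genes carry the results below: Dbp, with 4 members that were high together with it and Arntl, which ran opposite to it. They are RefSeq sequences on build GRCr8, matched by symbol (Arntl is listed there as Bmal1), while the counts were made on rn6. Of the 10 members, 9 had an entry. Each sequence is the 250 bases before 1 annotated start, 5′ to 3′ on the gene's own strand, and a gene can have other starts. Capitals mark motif matches.
Dbp, chr1:105312006-105312255, plus strand: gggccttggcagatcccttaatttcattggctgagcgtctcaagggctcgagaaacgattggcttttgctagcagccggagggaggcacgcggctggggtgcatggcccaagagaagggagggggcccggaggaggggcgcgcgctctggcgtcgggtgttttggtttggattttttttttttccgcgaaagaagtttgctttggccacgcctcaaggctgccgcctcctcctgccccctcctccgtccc
Tef, chr7:115206577-115206826, plus strand: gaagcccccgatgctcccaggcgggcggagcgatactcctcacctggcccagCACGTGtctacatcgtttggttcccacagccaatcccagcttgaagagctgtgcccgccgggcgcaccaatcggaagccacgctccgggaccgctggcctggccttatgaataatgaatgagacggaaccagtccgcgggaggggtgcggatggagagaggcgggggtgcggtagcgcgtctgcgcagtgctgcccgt
Per2, chr9:99496994-99497243, minus strand: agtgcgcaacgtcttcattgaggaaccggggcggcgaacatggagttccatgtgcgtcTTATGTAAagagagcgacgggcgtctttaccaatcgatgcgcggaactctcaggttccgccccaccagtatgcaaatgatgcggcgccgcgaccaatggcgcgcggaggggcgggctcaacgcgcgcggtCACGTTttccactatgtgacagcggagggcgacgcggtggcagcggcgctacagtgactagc
Nr1d1, first start, chr10:84231813-84232062, minus strand: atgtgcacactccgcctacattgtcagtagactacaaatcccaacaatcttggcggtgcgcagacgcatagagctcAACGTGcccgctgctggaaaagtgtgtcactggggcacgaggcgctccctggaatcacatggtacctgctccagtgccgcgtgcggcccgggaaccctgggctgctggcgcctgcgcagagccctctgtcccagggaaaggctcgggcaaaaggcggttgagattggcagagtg
Nr1d1, second start, chr10:84229455-84229704, minus strand: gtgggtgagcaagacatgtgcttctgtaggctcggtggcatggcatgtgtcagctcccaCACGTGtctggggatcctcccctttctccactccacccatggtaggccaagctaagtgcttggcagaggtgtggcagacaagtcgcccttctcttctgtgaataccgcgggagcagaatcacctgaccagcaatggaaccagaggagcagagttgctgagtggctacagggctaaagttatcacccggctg
Nr1d2, chr15:9954784-9955033, plus strand: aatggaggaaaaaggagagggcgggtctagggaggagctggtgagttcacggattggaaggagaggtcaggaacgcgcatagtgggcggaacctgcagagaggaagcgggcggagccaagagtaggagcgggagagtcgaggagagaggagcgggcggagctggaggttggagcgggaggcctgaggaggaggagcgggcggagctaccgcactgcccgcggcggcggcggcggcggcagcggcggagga
Arntl, chr1:176766078-176766327, plus strand: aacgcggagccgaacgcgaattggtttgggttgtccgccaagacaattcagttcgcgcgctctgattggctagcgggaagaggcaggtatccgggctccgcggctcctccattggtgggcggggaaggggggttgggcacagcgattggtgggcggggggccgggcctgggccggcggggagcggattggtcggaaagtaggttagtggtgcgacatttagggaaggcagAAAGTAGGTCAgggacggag

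Both strands were searched for the E-box CACGTG, the related CACGTT, the D-box forms TTATGTAA, TTATGCAA and TTACGTAA, the ROR response element consensus and its core TAGGTCA, which lies inside the consensus, and the cAMP response element TGACGTCA. CACGTG stood 198 bases before the start of Tef and 191 bases before the second start of Nr1d1, and 5.59% of all 33469 stretches of this length held it. The first start of Nr1d1 had CACGTT on the opposite strand, at 174 bases. Per2 had CACGTT at 62 bases and the D-box TTATGTAA at 192 bases before its start. These words occurred in 4.07% and 0.828% of all stretches. The Arntl stretch held AAAGTAGGTCA, a match to the ROR response element consensus, 20 bases before the start, and 0.317% of all stretches held such a match. The core TAGGTCA occurred in 2.26%. The stretches of Dbp, Per1, Per3, Nr1d2 and Clock held none of the words searched. The other 3 words occurred in 0.789%, 0.108% and 1.59% of stretches and in none of those of the members. A match describes letters in this window and not a bound site.

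Libraries held 4068021 to 10821485 counts and 12320 to 14077 detected gene IDs. Levels are given as CPM, the counts after scaling for library size with TMM factors, and 1 count was worth 0.0893 to 0.256 CPM. Median rank correlation with the other libraries was lowest in old SVF-treated replicate 2 (0.939) and old control replicate 4 (0.945), against a highest value of 0.963, and results that rest on these libraries are also given without them. Within groups, the log2 CPM of Dbp had a Pearson r of -0.56 with the log2 total count, that of Per2 -0.81 and that of Cry1 0.56. For Arntl this value was 0.14 and for Nr1d1 -0.14.

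Dbp (ENSRNOG00000021027), an activator that drives rhythmic output genes, had the widest range of the 10, with 13.9-fold between the lowest and highest of the 12 libraries. In young controls it was at 13.1, 14.1, 14.3 and 25.4 CPM in replicates 1 to 4. In old controls the values were 118, 80.6, 183 and 57.4 CPM, and in old SVF-treated rats 22.6, 54.3, 78.2 and 35.0 CPM. Every old control lay above every young control. The treated libraries reached from the young range, in replicate 1, into the old control range, in replicate 3. Mean levels were 16.7 ± 5.78 CPM in young controls, 110 ± 54.8 CPM in old controls and 47.5 ± 24.3 CPM in treated rats (SD, n = 4). The log2 fold change of old over young controls, which chose the gene, was 2.74 (SE 0.40), rank 39 from the top among 12496 genes.

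Tef (ENSRNOG00000019383), the second PAR bZIP factor, showed the same order of groups at a smaller amplitude. Young controls were at 43.6, 54.9, 65.4 and 68.1 CPM and old controls at 114, 98.0, 153 and 92.6 CPM, with no overlap. SVF-treated rats were at 74.6, 75.4, 91.5 and 57.5 CPM. All 4 treated libraries lay below the lowest old control, and 3 of 4 lay above the highest young control. The log2 fold change of old over young controls was 0.98 (SE 0.19).

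**Figure D1:**
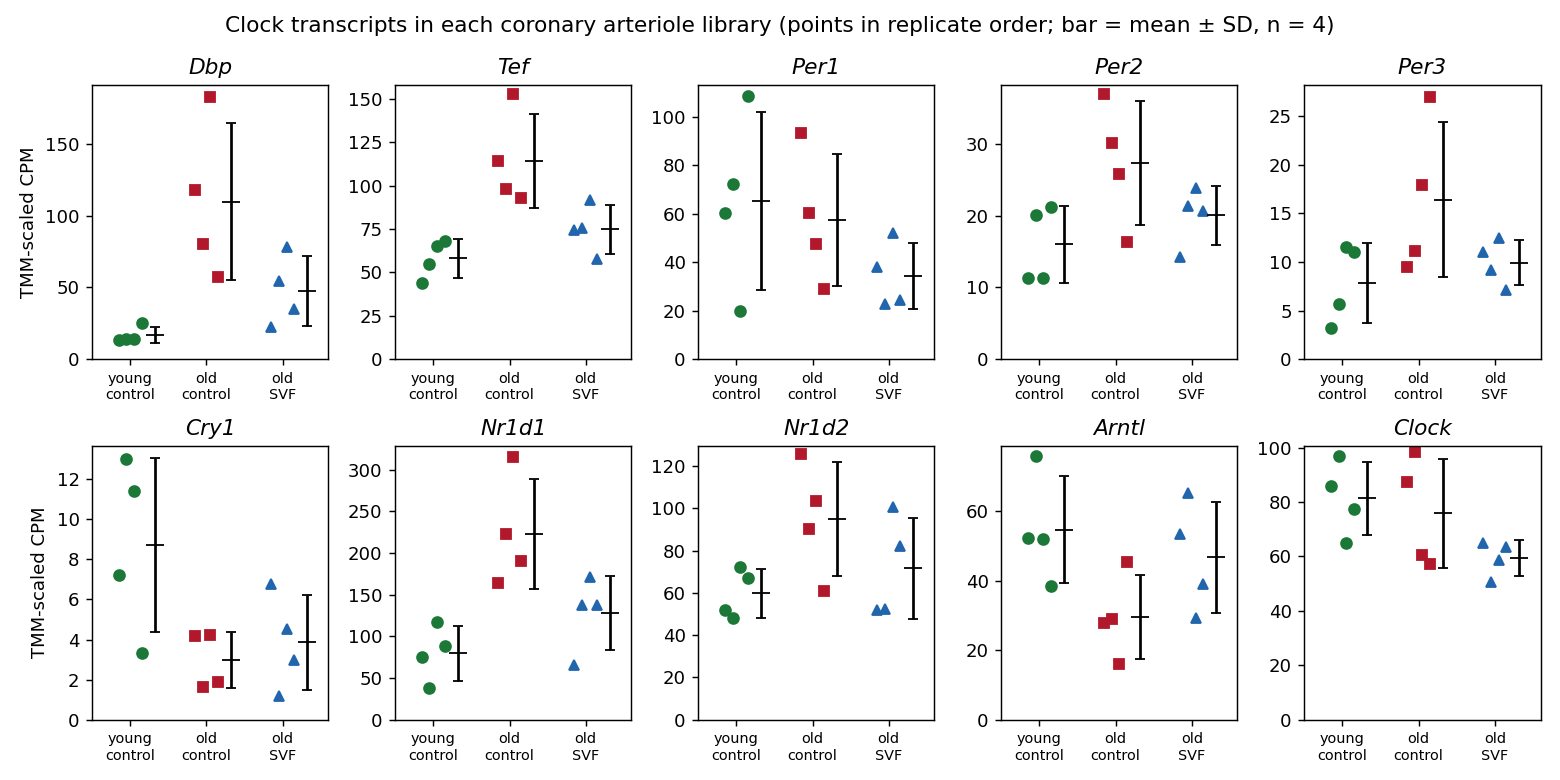
TMM-scaled CPM of the 10 clock transcripts in each library (vertical axis, from 0, with its own scale in each panel), by group (horizontal axis), with the 4 replicates as points from left to right and the mean ± SD beside them. Dbp, Tef and Nr1d1 are higher in all 4 old controls than in all 4 young controls, Arntl has its lowest value in old control replicate 3, and Per1 and Clock overlap between all groups.

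The Per genes encode the period repressors, and the 3 differed from one another. Per2 (ENSRNOG00000020254) was at 11.3, 20.1, 11.4 and 21.3 CPM in young controls, at 37.0, 30.2, 25.8 and 16.3 CPM in old controls and at 14.2, 21.3, 23.9 and 20.7 CPM in treated rats. Only old control replicate 4 kept the control groups from separating. Its log2 fold change of old over young controls was 0.78 (SE 0.31), with 0.96 without old control replicate 4 and old SVF-treated replicate 2 and 0.48 without young control replicate 3 and old control replicate 1. Per3 (ENSRNOG00000018413) was at 3.19, 5.64, 11.5 and 11.01 CPM in young and 9.47, 11.2, 17.9 and 27.1 CPM in old controls. Between these groups the log2 fold change was 1.08 (SE 0.44), with 0.72 without old control replicate 4 and old SVF-treated replicate 2 and 1.55 without young control replicate 3 and old control replicate 1. In treated rats it was at 11.1, 9.16, 12.5 and 7.09 CPM, all within the range of the other groups. Per1 (ENSRNOG00000007387), which besides its clock role responds directly to hormonal signals, did not share that order. It was at 60.2, 72.2, 19.8 and 109 CPM in young controls, 93.4, 60.2, 47.4 and 28.9 CPM in old controls and 38.2, 22.8, 52.1 and 24.3 CPM in treated rats. Its difference between control groups was within its own spread (log2 fold change -0.17, SE 0.45), and its sign turned without young control replicate 4 (0.19) or old control replicate 4 (0.05). Leaving out young control replicate 3 gave -0.48, leaving out old control replicate 1 gave -0.51, and leaving out both gave -0.80. The spread of Per1 within groups, 0.79 on the log2 scale, stood at percentile 100 among the 1000 genes nearest to it in mean level. A wide spread was not particular to Per1: by the same measure Nr1d1 stood at 99.4, Dbp at 98.9, Arntl at 94.8 and Nr1d2 at 93. The remaining members stood between 41.1 (Cry1) and 70.7 (Tef).

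Cry1 (ENSRNOG00000006622), a cryptochrome that inhibits CLOCK and BMAL1, was the member with the fewest counts, 8 to 85 per library. It was at 7.20, 13.0, 11.4 and 3.33 CPM in young controls, 4.15, 1.64, 4.20 and 1.88 CPM in old controls and 6.78, 1.20, 4.53 and 2.96 CPM in treated rats. Young control replicate 4 lay among the old libraries, and the other 3 young controls lay above all 8 of them. The log2 fold change of old over young controls was -1.55 (SE 0.67). Within groups its log2 CPM had an r of -0.70 with the number of tested genes at a count of 0 in a library, and the part of library quality in its values was not tested.

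The REV-ERB genes Nr1d1 and Nr1d2, whose products repress Arntl, were both higher on average in old controls. Nr1d1 (ENSRNOG00000009329) was at 75.6, 37.6, 117 and 88.1 CPM in young controls and at 165, 222, 315 and 190 CPM in old controls, with no overlap. SVF-treated rats were at 66.2, 138, 171 and 138 CPM. The treated libraries spanned the space between the control groups, with replicate 1 inside the young range and replicate 3 inside the old range. The log2 fold change of old over young controls was 1.48 (SE 0.32). Nr1d2 (ENSRNOG00000046912) was at 48.1 to 72.1 CPM in young controls (median 59.5), 61.1 to 126 CPM in old controls (median 96.7) and 52.0 to 101 CPM in treated rats (median 67.1), a log2 fold change of old over young controls of 0.67 (SE 0.23).

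The activator genes ran the other way or showed little difference. Arntl (ENSRNOG00000014448), which encodes BMAL1, was at 52.4, 76.0, 52.0 and 38.7 CPM in young controls and 27.9, 28.9, 16.2 and 45.5 CPM in old controls. SVF-treated rats were at 53.6, 65.5, 29.2 and 39.0 CPM. Old control replicate 4 lay inside the young range and the other 3 old controls below it. The log2 fold change of old over young controls was -0.89 (SE 0.29). Clock (ENSRNOG00000002175), the partner of BMAL1, whose transcript is known to oscillate little in most tissues, had the narrowest range of the 10, 50.6 to 98.3 CPM. Its means were 81.4 ± 13.5 CPM in young controls, 75.8 ± 20.2 CPM in old controls and 59.5 ± 6.51 CPM in treated rats (SD, n = 4), and the log2 fold change of old over young controls was -0.10 (SE 0.19), or 0.012 without old control replicate 4.

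Counted together, 6 of 10 members were higher and 4 lower in old than in young controls, with a median log2 fold change of 0.73, against -0.0091 over all genes tested. The libraries of the 2 control groups did not overlap for 3 members, all higher in old controls (Dbp, Tef and Nr1d1). Over all genes 1.87% were so separated with old controls higher and 1.62% with old controls lower. Because this contrast chose Dbp, the calls made in it follow from the choice, and nothing is read from them or from their share beside that of all genes. At an adjusted p under 0.05 edgeR's quasi-likelihood fit marked 1 member, Dbp, and 0.04% of all genes. The mark moved between members with the setting: DESeq2 marked Dbp, Nr1d1 and Tef, while limma voom, edgeR without the filter on low counts, and edgeR without young control replicate 3 and old control replicate 1 each marked Tef and not Dbp. Without young control replicate 1, 2 or 3 or old SVF-treated replicate 2, edgeR marked 0 members, and without old SVF-treated replicate 1 it marked Dbp and Nr1d1.

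A ratio of 2 transcripts taken within a library does not depend on how libraries are scaled. Its absolute value depends on transcript length, so only differences between libraries are read. The log2 ratio of Dbp to Arntl counts was -2.0, -2.43, -1.86 and -0.61 in young controls. It was 2.08, 1.48, 3.50 and 0.34 in old controls and -1.25, -0.27, 1.42 and -0.16 in SVF-treated rats. All old controls lay above all young controls, and all 4 treated libraries lay between the means of the control groups. Dbp was chosen by its difference between the control groups, so nothing is read from this separation. Treated replicate 1 was inside the young control range and replicate 3 inside the old control range. The log2 ratio of Nr1d1 to Arntl averaged 0.47 ± 1.04 in young controls and 2.96 ± 0.95 in old controls, with treated rats at 1.44 ± 0.97. For Tef over Arntl the means were 0.10 ± 0.58, 2.01 ± 0.92 and 0.72 ± 0.64 (SD, n = 4). Old control replicate 3 had the highest value of all 12 libraries in each of these 3 ratios.

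**Figure D2:**
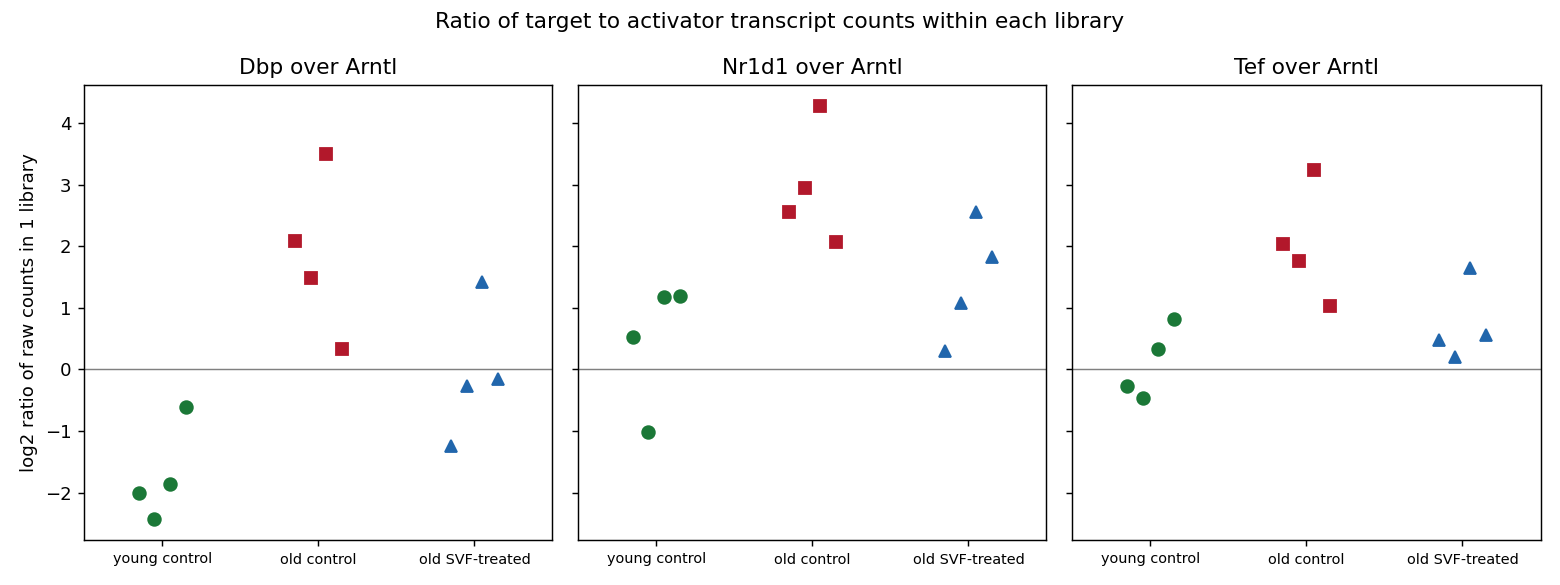
Log2 ratio of the raw counts of Dbp, Nr1d1 or Tef to those of Arntl within each library (vertical axis), by group (horizontal axis), with 1 point per library in replicate order. In all 3 panels the 4 old controls lie above the 4 young controls, and old control replicate 3 is highest. Dbp was chosen by its difference between these control groups.

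SVF-treated and untreated rats of the same labelled age were set against each other to see how the cell injection relates to these transcripts. The 8 members other than Cry1 and Arntl had lower fitted levels in treated rats, and Cry1 and Arntl higher ones, but no member passed the test. edgeR's quasi-likelihood test called 0 of 10 members and 0% of all genes at an adjusted p under 0.05, and DESeq2 and limma voom also called 0 members. At an unadjusted p under 0.05 there were 4 members, Dbp, Tef, Nr1d1 and Arntl, and 2.94% of all genes. Dbp had a log2 fold change of -1.21 (95% interval -1.99 to -0.43, edgeR adjusted p = 0.999). The old controls were high in Dbp in the comparison that chose it, so a lower level in treated rats is not independent of that choice. Tef had -0.61 (95% interval -1.0 to -0.22), Nr1d1 -0.80 (-1.47 to -0.13) and Arntl 0.66 (0.070 to 1.25), each with an edgeR adjusted p of 0.999. These 4 estimates kept their sign in every alternative run, with Dbp between -1.68 and -0.85. So did the estimates of all other members except Cry1.

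The remaining members had wider or smaller differences between treated and untreated old rats. Per1 had a log2 fold change of -0.74 (95% interval -1.70 to 0.23), Per2 -0.45 (-1.07 to 0.18) and Per3 -0.72 (-1.61 to 0.16). Nr1d2 had -0.41 (-0.88 to 0.064) and Clock -0.35 (-0.74 to 0.040). The interval of Cry1, -0.99 to 1.76 around 0.39, spans changes in both directions, and its estimate was -0.035 without old SVF-treated replicate 1. Tef was the 1 member whose treated and untreated old libraries did not overlap, being lower in treated rats, as were 1.14% of all genes, while 1.27% were separated with treated rats higher. This comparison shares the old controls with the one that chose Dbp, so its results for Dbp, and for members that varied with Dbp, are not independent of that choice.

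Old SVF-treated rats also differed from young controls in age. This comparison shares the young controls with the one that chose Dbp, so its results for Dbp are not independent of that choice. Dbp was at a log2 fold change of 1.52 over young controls (95% interval 0.70 to 2.35), which edgeR did not call (adjusted p = 0.248) and DESeq2 called (adjusted p = 0.0114). Over the other alternatives the adjusted p ran from 0.116 to 0.589. edgeR called 0 of 10 members, where 0.064% of all genes were called, and limma voom called 0 members. At an unadjusted p under 0.05 there were 3 members, Dbp, Nr1d1 and Clock, and 7.11% of all genes. Nr1d1 had a log2 fold change of 0.69 (95% interval 0.011 to 1.36, edgeR adjusted p = 0.695) and Clock -0.45 (-0.84 to -0.062, edgeR adjusted p = 0.621). Arntl had -0.23 (-0.81 to 0.36), Tef 0.37 (-0.026 to 0.76) and Per1 -0.91 (-1.88 to 0.057). The separation of libraries seen in 2.43% of all genes with treated rats higher, and in 2.22% with treated rats lower, was seen in 0 members. The mean level of treated rats lay between the 2 control means for 8 of 10 members, all but Per1 and Clock, and for 31.7% of all genes. Nothing is read from this count, since Dbp was chosen for its distance between the control groups.

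**Figure D3:**
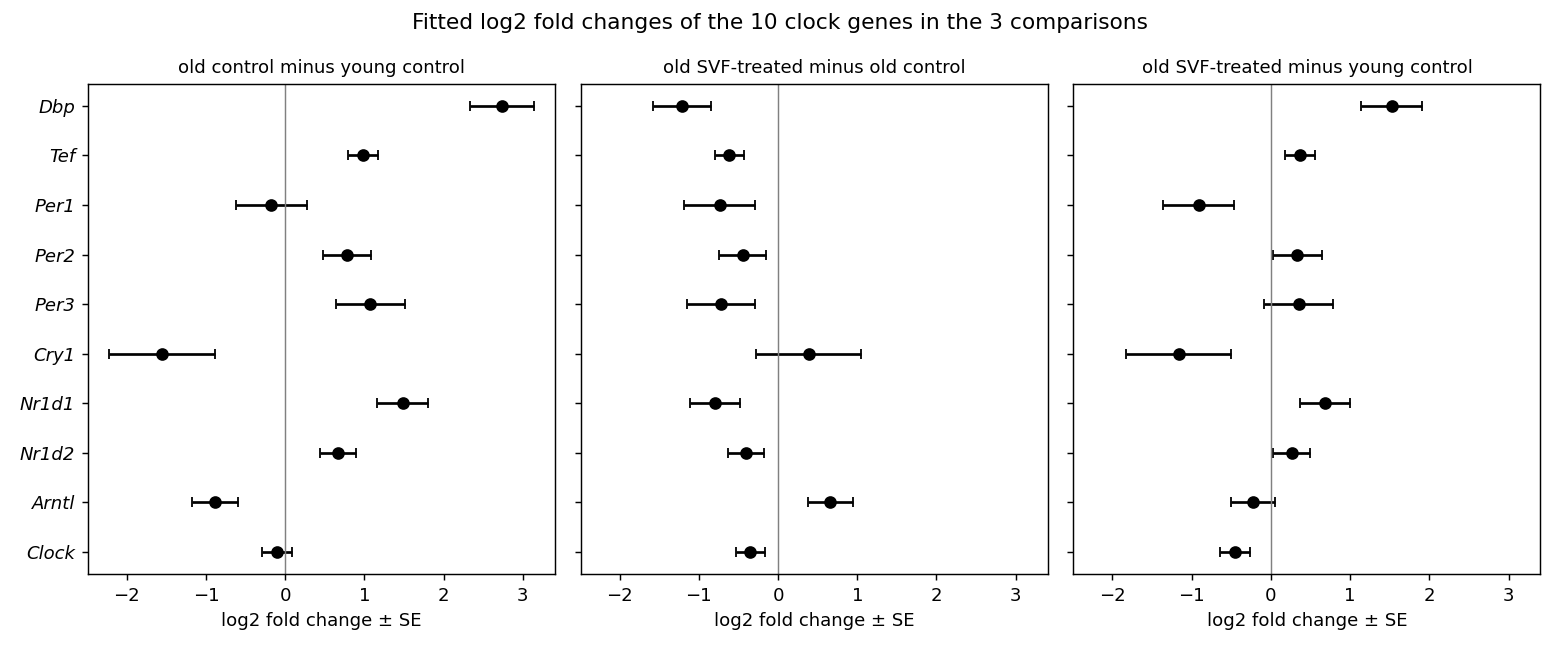
Fitted log2 fold changes (horizontal axis, points) with their standard errors (bars) for the 10 members (rows) in the 3 comparisons (panels). Dbp, Tef, Per2, Per3, Nr1d1 and Nr1d2 lie right of 0 in old over young controls and left of 0 in SVF-treated over old controls, and Arntl lies on the other side in both panels, which share the old controls.

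The log2 fold change that chose Dbp compares groups, so variation among libraries of 1 group was examined separately. The members were chosen with earlier results of these data known, so full independence from that choice is not shown. In each of the 3 groups the library with the highest Dbp also had the highest Tef and the lowest Arntl: young control replicate 4, old control replicate 3 and old SVF-treated replicate 3. In log2 CPM these libraries stood 0.65, 0.87 and 0.86 above their group mean for Dbp and -0.46, -0.77 and -0.61 from it for Arntl. The library with the lowest Dbp in old controls, replicate 4, had the highest Arntl of that group, at 0.71 above the mean. In young controls and in SVF-treated rats the library with the lowest Dbp, replicate 1 in each, was not the one with the highest Arntl, which was replicate 2 in each.

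Over the 12 libraries, each centred on its group mean, Pearson's r with Dbp was 0.74 for Tef, 0.64 for Nr1d2, 0.64 for Per2, 0.58 for Nr1d1 and -0.71 for Arntl. Spearman's rho was 0.82, 0.59, 0.55, 0.66 and -0.64 in the same order. Among the 12495 other genes tested these values ranked 63 for Tef, 197 for Nr1d2, 205 for Per2 and 345 for Nr1d1 from the highest, and 85 for Arntl from the lowest. Per1 (0.38), Per3 (0.11), Cry1 (-0.13) and Clock (-0.20) lay nearer to the centre of all genes. For Cry1 and Per3 the sign differed between groups, each of 4 libraries. In young controls, old controls and treated rats, r was -0.85, 0.86 and -0.41 for Cry1 and 0.60, -0.33 and 0.29 for Per3. The other members kept their sign in every group. The correlations over all 12 libraries are a description of libraries that share depth and scaling. Without the 2 libraries farthest from the median of Dbp, old control replicate 3 and old SVF-treated replicate 3, r was 0.53 for Tef, 0.52 for Nr1d2, 0.75 for Per2, 0.40 for Nr1d1 and -0.45 for Arntl. With old control replicate 4 and old SVF-treated replicate 2 left out instead, r was 0.70 for Tef, 0.71 for Nr1d2, 0.50 for Per2, 0.58 for Nr1d1 and -0.86 for Arntl, and that of Per3 was 0.46. With young control replicate 3 and old control replicate 1 left out, r was 0.79 for Tef, 0.78 for Nr1d1, 0.71 for Nr1d2 and -0.73 for Arntl.

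**Figure D4:**
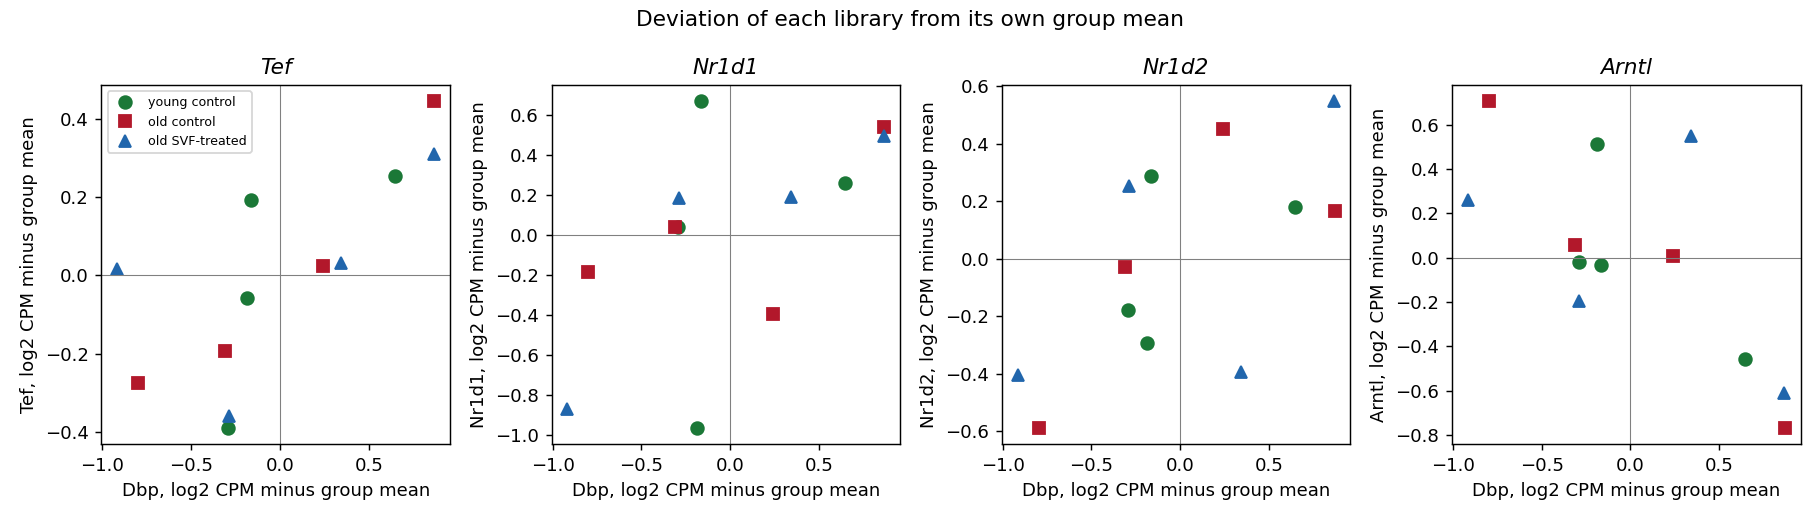
Deviation of each library from its own group mean in log2 CPM, for Dbp (horizontal axis) and for Tef, Nr1d1, Nr1d2 or Arntl (vertical axes), with 1 point per library and a symbol for each group. Libraries high in Dbp tend to be high in the first 3 genes and low in Arntl, with r of 0.74, 0.58, 0.64 and -0.71.

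A test of this relation was made across all genes, as the slope of each gene's expression on the centred log2 CPM of Dbp. A slope of 1 means a change in proportion to Dbp. Slopes were 0.32 for Tef (95% interval 0.082 to 0.56), 0.48 for Nr1d1 (0.10 to 0.85), 0.40 for Nr1d2 (0.096 to 0.71) and -0.54 for Arntl (-0.92 to -0.16). None passed correction over all genes (edgeR adjusted p = 1 for each). edgeR called 0 of 9 members and 0% of all genes, limma trend called 0 members, and at an unadjusted p under 0.05 there were 4 members, these 4, and 2.4% of all genes. Per2 had a slope of 0.43 (-0.011 to 0.87), which was 0.17 with the total count of the library as a further covariate. With that covariate the slopes were 0.37 for Tef, 0.59 for Nr1d1, 0.46 for Nr1d2 and -0.74 for Arntl. Per1 had a slope of 0.45 (-0.17 to 1.06), larger than that of Tef but with an interval that spanned 0, and it was 0.25 with the total count as a covariate. The slope of Per3 (0.029), Cry1 (-0.12) and Clock (-0.098) had intervals that spanned 0 widely.

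Seen from Arntl, the members divided by r, but not by slope in every fit. Within groups r with Arntl was -0.79 for Nr1d2, -0.71 for Dbp, -0.62 for Nr1d1 and -0.58 for Tef, and 0.044 for Clock, its partner. Nearer to 0 than the first 4 were the Per genes and Cry1, with r of -0.34 for Per1, -0.33 for Per2, -0.066 for Per3 and -0.16 for Cry1. The slopes of these 4 on Arntl were -0.55, -0.26, -0.019 and -0.19, and each 95% interval spanned 0. Nr1d2 ranked 44 from the lowest of 12495 genes, Dbp 181 and Nr1d1 483. Without the 2 libraries farthest from the median of Arntl, old control replicates 3 and 4, r was -0.80 for Nr1d2, -0.52 for Dbp, -0.60 for Nr1d1 and -0.31 for Tef. Without old control replicate 4 and old SVF-treated replicate 2, r was -0.86 for Dbp, -0.83 for Nr1d1, -0.63 for Nr1d2 and 0.74 for Clock, so the value for Clock rests on these 2 libraries. Slopes on Arntl were -0.88 for Dbp (95% interval -1.37 to -0.40, edgeR adjusted p = 0.824) and -0.65 for Nr1d2 (-1.01 to -0.28, edgeR adjusted p = 0.824). The slope of Dbp was -1.34 without old control replicate 4 and old SVF-treated replicate 2, and the lowest adjusted p for Dbp in any alternative was 0.0785, without old SVF-treated replicate 2. edgeR called 0 of 9 members and 0% of all genes, limma trend called 0 members, and at an unadjusted p under 0.05 there were 4 members, Dbp, Tef, Nr1d1 and Nr1d2, and 4.63% of all genes.

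**Figure D5:**
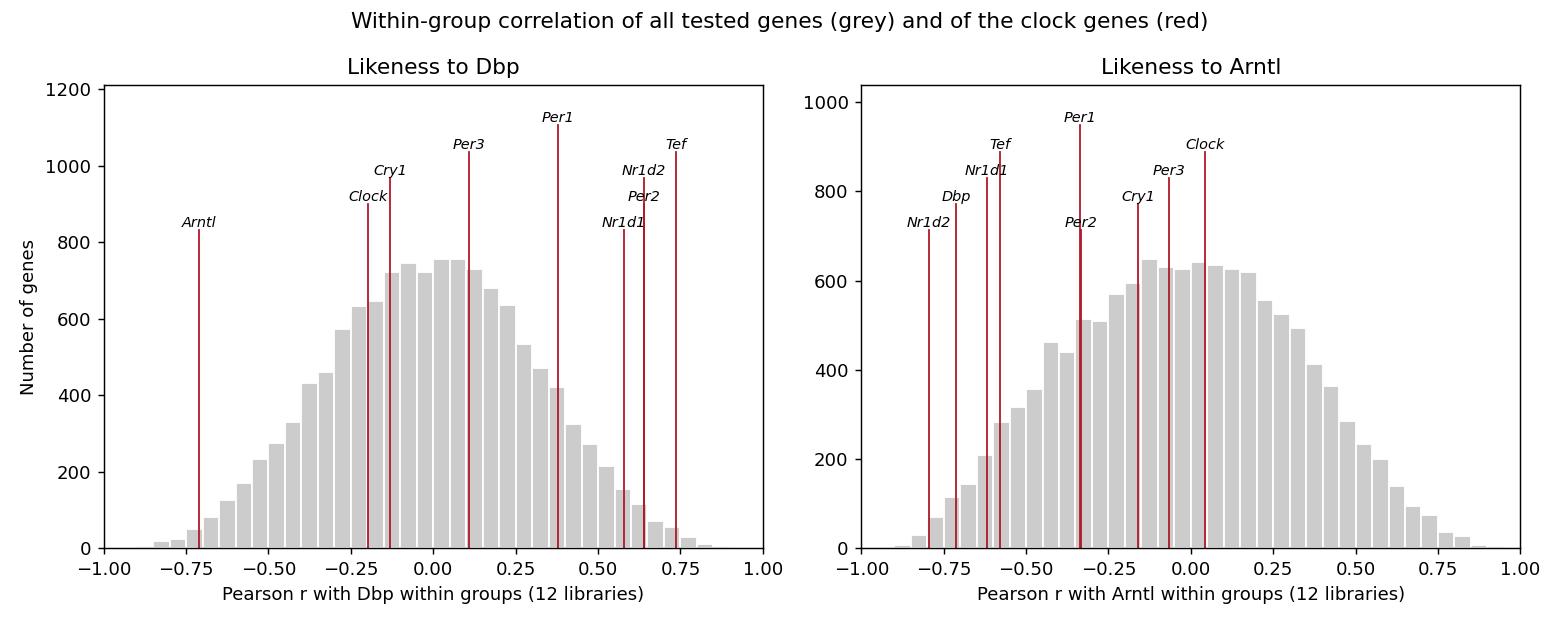
Number of genes (vertical axes) by their within-group Pearson r with Dbp (left) or Arntl (right) over 12 libraries (horizontal axes, bins of 0.05 wide), with the clock genes as labelled red lines. Tef, Nr1d2, Per2 and Nr1d1 lie in the right tail and Arntl in the left tail for Dbp, and Nr1d2 and Dbp lie in the left tail for Arntl.

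Other pairs of members followed no single order. Per1 went with Per2 (r = 0.69 within groups) and with Clock (0.62), but not with Nr1d1 (-0.33) or Per3 (-0.33). Per3 went with Tef (0.54) and opposite to Clock (-0.69). These values are descriptions over the same 12 libraries.

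Over all 12 libraries without centring, Tef (r = 0.92) and Nr1d1 (0.86) ranked 1 and 2 in likeness to Dbp among 10282 genes with a mean of at least 5 CPM. They were followed by ENSRNOG00000014230 (0.83) and ENSRNOG00000015059 (0.81), which no table used here names. Per2 ranked 7 (0.79) and Nr1d2 ranked 14 (0.76), while Per3 ranked 184 (0.58) and Per1 ranked 3514 (0.11). At the other end ENSRNOG00000008834 (-0.88) and ENSRNOG00000013072 (-0.86) were farthest from Dbp, and Arntl ranked 6 from the bottom (-0.81). These values include the difference between groups by which Dbp was chosen.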

How the data were processed

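RNA-seq was analysed in 12 libraries, 4 in each of 3 groups. The authors deposited raw counts per gene. Per the submitters' processing notes, FastQC 0.10.1, the build rn6 and HTSeq 0.10.0 were used. Aligner, annotation and strand setting: not given in the sources used here. Overlapping or antisense genes may therefore share reads. The tests ran in R 4.3.3 with edgeR 4.0.16, using filterByExpr (minimum count 10, minimum total 15), TMM scaling, robust quasi-likelihood F tests with the group as the only term in all 12 libraries, and Benjamini-Hochberg adjustment over all 12496 genes (12495 for slopes on Dbp or Arntl, with group as a term). For log2 CPM the prior count was 2. Correlations used values centred on the group mean. Alternatives were DESeq2 1.42.0, limma 3.58.1, RLE scaling, other filters, only the 2 groups compared, a replicate block, and leaving out libraries. Leaving out 2 libraries together and adding the total count as a covariate were chosen after seeing the data. Tests were checked on simulated data. Of simulated log2 changes of 1, 54% were called, both for old against young controls and for SVF-treated against old controls. For changes of 2 this was 67% and 66%, and for changes of 3 it was 73% and 85%. Of simulated slopes of 1 on Dbp, 66% were called. Calls among genes left unchanged were 6, 8 and 11 in these simulations. Each simulation changed 66 or 67 genes at each size, and that of old against young controls changed both old groups. With so many changed genes the adjustment is milder than in the deposited table, where these fits called few or no genes. The rates therefore do not give the power of the tests above. The members and lists were chosen with earlier results of these data known. All 10 members are described, with values for every library where the results turn on them. For likeness to Dbp, genes with a mean of at least 5 CPM were ranked, and at most 2 IDs without a symbol were printed from each end. The lists of other clock genes, clock outputs, glucocorticoid and immediate early genes and cell type markers need symbols and were not analysed here.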

Additional observations from a re-analysis of the deposited data

Results flagged for a closer look

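Young control replicate 4 stood apart from its group for Dbp, at 25.4 CPM against 13.1 to 14.3 CPM in the other 3 libraries. Its distance from the next value made up 0.900 of the group's range, past Dixon's 95% limit for 4 values. Of 30 groups of values examined, 1 passed that limit, which chance alone passes in about 1 of 20 groups. This library also had the highest Tef, Per1 and Per2 and the lowest Arntl and Cry1 of the young controls. It had the lowest total count of all 12 libraries (4068021), and the part of depth in this value was not tested.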

How the results depend on the processing

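The contrast of old with young controls chose Dbp, so its counts of calls only show how the setting moves them, not how stable a finding is: 1 member in the fit reported above, 3 with DESeq2, 2 with the replicate block and 0 to 2 when 1 library was left out. SVF-treated rats against young controls, a comparison that shares the young controls with that choice, had 0 members called and 1 with DESeq2. Over all genes, old against young controls gave 5 calls, against 30 with DESeq2, 15 with limma voom, 33 without young control replicate 3 and old control replicate 1, and 0 to 12 with 1 library left out. SVF-treated against young controls gave 8 calls, against 57 with DESeq2, 29 with limma voom, 15 without a filter, 3 with only the 2 groups, 2 with the replicate block, 32 or 33 with 2 libraries left out together and 0 to 22 with 1 left out. SVF-treated against old controls gave 0 calls in all 21 alternatives. The cause was not tested for these shifts. Same-numbered libraries of different groups correlated at -0.0056 to 0.090, and differently numbered ones at -0.11 to 0.096. The ranges overlap, so they do not tell whether replicate numbers pair the samples. The replicate block added Nr1d1 to the calls of old against young controls. With the replicate block the slope of Per1 on Dbp was 1.0, against 0.45, and these slopes turned sign: Per3 (-0.27) and Clock (0.047) on Dbp, and Per3 (0.63), Cry1 (0.44) and Clock (-0.35) on Arntl. With the total count as a covariate the slopes on Dbp of Per3 (-0.010) and Cry1 (0.31) did, and without the 2 libraries of lowest rank correlation that of Cry1 on Arntl (0.57). With 1 library left out, slopes on Dbp ran from -0.088 to 0.37 for Per3 and -0.36 to 0.37 for Cry1. Slopes on Arntl ran from -0.61 to 0.12 for Per3, -0.51 to 0.13 for Cry1 and -0.13 to 0.25 for Clock. The log2 fold change of Cry1 in SVF-treated against old controls ran from -0.035 to 0.68. Slopes of Tef, Per1, Per2, Nr1d1, Nr1d2 and Arntl on Dbp kept their sign in all 19 alternatives. Cry1 had the fewest counts of the members, and the part of depth in its shifts was not tested.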
